A study of Mus musculus with 6 samples.

Results

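The 35 genes described here encode the machinery of glycolysis and the response to low oxygen: 20 glycolysis genes (glucose transporters, the enzymes down to lactate, lactate transporters and Pdk1) and 15 hypoxia genes (oxygen sensors, mitophagy receptors and other targets of the hypoxia-inducible factor). They were chosen by symbol from the table of counts per gene. All 35 were among its 49671 genes, and all 35 passed the filter on low counts that left 12242 genes for testing. They were measured in CD8 T cells of OT-I mice, whose transgenic T cell receptor recognises the ovalbumin peptide SIINFEKL on MHC class I. The cells labelled CD73 KO and the cells labelled WT had 3 libraries each. Both groups came from total splenic CD8 T cells that received SIINFEKL at 10 ng/mL daily over 5 days, with IL-7 and IL-15 at 5 ng/mL each, and live cells were then sorted for RNA. The culture stands in for chronic antigen exposure, there was no unstimulated group, and the labels name neither the knockout allele, nor the age of the mice, nor separate animals or cultures behind the 3 libraries. P-values therefore measure the spread between these libraries, which may be technical.

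Glycolysis splits glucose into pyruvate, and activated T cells turn much of that pyruvate into lactate even when oxygen is present. The oxygen-sensing arm works through hypoxia-inducible factor 1 (HIF-1). Prolyl hydroxylases mark its alpha subunit for destruction when oxygen is at hand, and when oxygen falls, or when T cell receptor and mTOR signalling raise its synthesis, HIF-1 binds short elements in DNA and turns on glucose transporters, most glycolytic enzymes and genes that limit mitochondrial activity. CD73, the product of Nt5e, converts extracellular AMP to adenosine, which restrains T cells through receptors that raise cAMP.

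The libraries held 10202128 to 19382950 counts in CD73 KO and 6934150 to 13039990 in WT, so that 1 count equalled 0.0531 to 0.142 CPM (counts scaled to a common library total with TMM factors) and the floor of 3 counts equalled 0.159 to 0.427 CPM. The lowest member in any library still had 44 counts. Nt5e, the targeted gene, was at 3.67, 8.45 and 8.47 CPM in the CD73 KO libraries, against 22.6, 5.22 and 37.4 CPM in the WT libraries. Its log2 fold change was -1.67 ± 0.72 (SE; edgeR adjusted p = 0.534). The library labelled WT replicate 2 lay inside the CD73 KO range, and the fold changes of all members were also computed without it. Markers of CD8 T cells summed to 3944 to 4295 CPM in CD73 KO and 3661 to 3818 CPM in WT. Of the marker lists, 4 of 8 myeloid genes (Lyz2, Csf1r, C1qa and Spi1) and 2 of 7 B cell genes (Ms4a1 and Pax5) were at 0 counts in all 6 libraries. Others were not: the B cell genes Ighm and Cd79b had 689.7 to 819.5 and 0.426 to 2.34 CPM, overlapping between genotypes. Ighd had 38.2 to 46.2 CPM in CD73 KO and 18.7 to 27.9 CPM in WT (edgeR adjusted p = 0.203). The myeloid gene Ctss had 71.5 to 89.9 CPM in CD73 KO and 45.9 to 63.2 CPM in WT (edgeR adjusted p = 0.27). Klrd1, Klre1, Pecam1, Cd8b1 and Cd3g were also higher in CD73 KO without overlap, while Cd40lg, Cd14 and Foxp3 were lower. Of all tested genes, 7.59% were higher and 7.6% lower in that way. In bulk RNA, fewer cells that express a gene and less RNA per cell cannot be told apart.

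Between genotypes, 0 of the 35 members passed the test (edgeR's quasi-likelihood test, Benjamini-Hochberg adjusted over all 12242 genes, threshold 0.05), where 7 of all tested genes did, a background of 0.0572% (0.0408% higher and 0.0163% lower in CD73 KO). DESeq2 called 0 members (background 0.81%) and limma-voom 0 (background 0.049%). At an unadjusted p under 0.05, edgeR counted 2 members, Slc16a1 lower and Ddit4 higher in CD73 KO, against a background of 9.64%. DESeq2 counted 5 members by that measure (background 8.32% of the same 12242 genes) and limma-voom 2 (background 9.92%). The lowest adjusted p of any member was 0.331, for Slc16a1. Fitted log2 fold changes were below 0 for 22 of 35 members, 15 of 20 in glycolysis and 7 of 15 in hypoxia, against 47.7% of all tested genes. The median log2 fold change was -0.12 over the 20 glycolysis members and 0.04 over the 15 hypoxia members, beside 0.01 over all tested genes. The glycolysis median was 0.05 without WT replicate 3, and the value for hypoxia turned below 0 when 1 of 3 libraries was left out: -0.23 (CD73 KO replicate 2), -0.13 (WT replicate 1) and -0.07 (the library labelled WT replicate 2). Ranges of CD73 KO and WT libraries did not overlap for 2 members, Slc16a1 and Eno1, both lower in CD73 KO, where 7.6% of all tested genes were lower in that way.

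**Figure D1:**
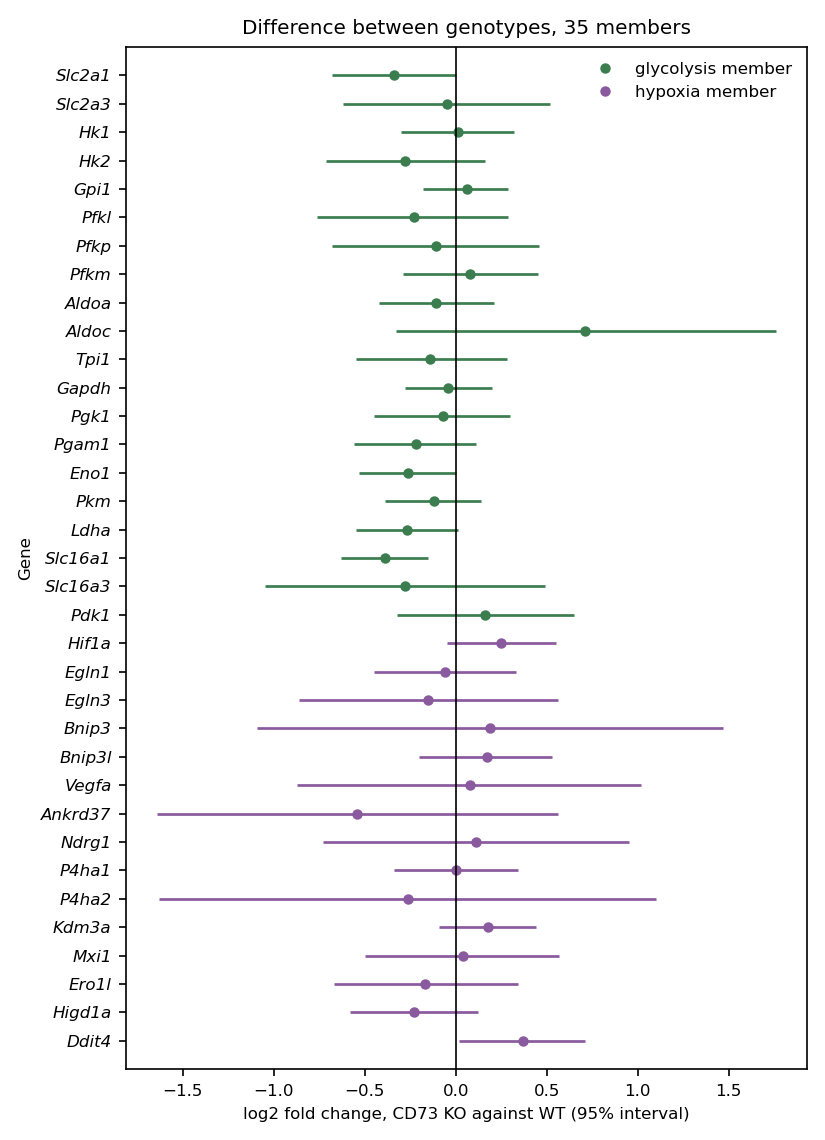
Fitted log2 fold change (CD73 KO against WT, x axis) with its 95% interval for each of the 35 members, in the order of the pathway. The interval lies wholly below 0 for Slc16a1 and wholly above 0 for Ddit4, and no member passed after adjustment.

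Within each genotype, 1 library stood apart. Of the 3 CD73 KO libraries, replicate 2 had the highest level for 33 of 35 members (background 33.1% of tested genes). Of the 3 WT libraries, replicate 3 had the highest level, also for 33 of 35 (background 39.7%). Both held for 32 members, 18 of 20 in glycolysis and 14 of 15 in hypoxia, against 17.0% of all tested genes. For 27 members these were also the top 2 of all 6 libraries (background 10.3%). The count of 32 was the same with RLE size factors, with library size alone, with all libraries thinned to the smallest total, and with retrocopy counts added. The exceptions were Hk2, highest in CD73 KO replicate 1, Slc16a1, highest in CD73 KO replicate 1 and in the library labelled WT replicate 2, and Hif1a, highest among WT in the library labelled WT replicate 2. No member had its lowest value in CD73 KO replicate 2 or WT replicate 3.

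The difference between libraries was larger for hypoxia than for glycolysis members. The median glycolysis member lay -0.13, 0.19 and -0.18 (log2 CPM) from its mean over 6 libraries in CD73 KO replicates 1, 2 and 3, and -0.17, -0.03 and 0.35 in WT replicates 1, 2 and 3. The median hypoxia member lay at -0.12, 0.37 and -0.21 in the CD73 KO libraries and at -0.26, -0.16 and 0.39 in the WT libraries. Over all tested genes the same medians were 0.00 to 0.01. The 35 members took 1.22%, 1.54% and 1.24% of all counts in the CD73 KO libraries, against 1.24%, 1.34% and 1.75% in the WT libraries. The median standard deviation of log2 CPM within genotypes was 0.24 for glycolysis and 0.37 for hypoxia, beside 0.20 for all tested genes. The median biological coefficient of variation was 0.147 for glycolysis and 0.194 for hypoxia, beside 0.147 for all tested genes. It is the square root of the dispersion that edgeR fitted per gene, which leaves out counting error and is moderated across genes. The lists were not compared at like levels. With CD73 KO replicate 2 and WT replicate 3 both left out, the median standard deviation was 0.13 and 0.16, beside 0.17 for all tested genes. This alternative was chosen after seeing the data, and since most members peaked in these libraries, a lower spread followed from the choice. The highest library exceeded the lowest by more than 1.5 times for 26 of 35 members (background 46.2%) and by more than 2 times for 8 (background 20.3%). WT replicate 3 was the shallowest library and CD73 KO replicate 2 the second deepest.

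**Figure D2:**
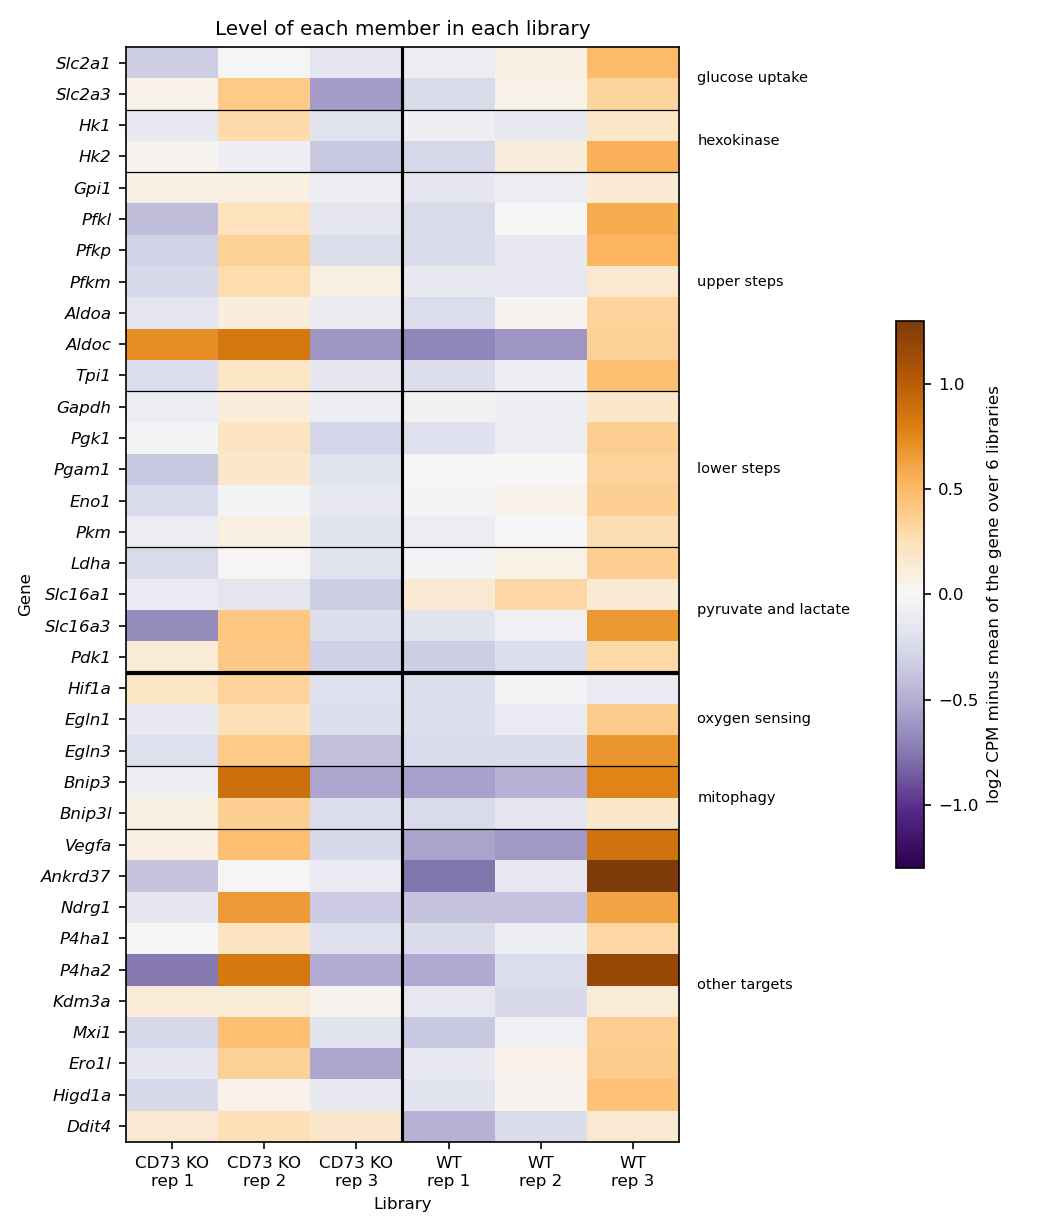
Level of each member (rows, by role) in each library (columns, CD73 KO left and WT right of the black line) as log2 CPM minus the gene's mean over the 6 libraries. The columns of CD73 KO replicate 2 and WT replicate 3 are orange for nearly all rows, with Hk2, Slc16a1 and Hif1a as the members that do not peak in both.

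**Figure D3:**
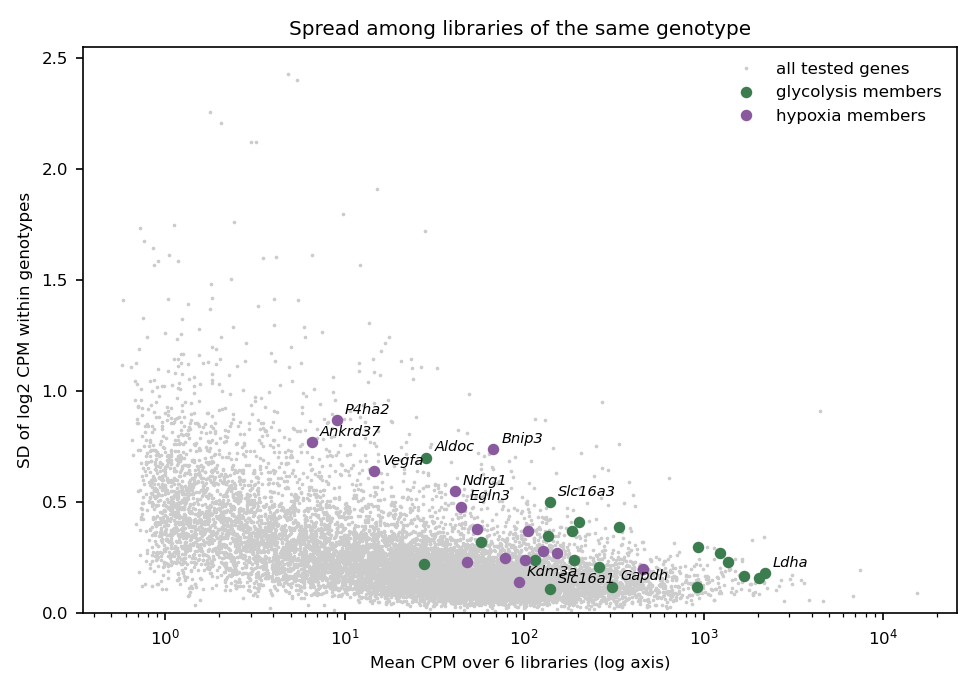
Standard deviation of log2 CPM within genotypes (y axis) against mean CPM over 6 libraries (x axis, log) for all 12242 tested genes (grey), glycolysis members (green) and hypoxia members (purple). P4ha2, Ankrd37, Bnip3, Aldoc and Vegfa lie between 0.64 and 0.87, and Slc16a1, Kdm3a and Gapdh between 0.11 and 0.14.

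Glucose enters T cells mainly through 2 transporters among the members. Slc2a1 (GLUT1; ENSMUSG00000028645, mm10 chromosome 4, 119108711 to 119137983) had 90.1, 112 and 102 CPM in the CD73 KO libraries, against 107, 119 and 161 CPM in the WT libraries. WT replicate 3 stood highest and CD73 KO replicate 1 lowest, and the ranges overlapped between 107 and 112 CPM. The log2 fold change was -0.34 ± 0.16 (SE; edgeR adjusted p = 0.519), and -0.15 without WT replicate 3. Slc2a3 (GLUT3), the transporter of higher glucose affinity, averaged 199 ± 64.7 CPM in CD73 KO, against 207 ± 41.0 CPM in WT (SD, n = 3 each). Per length the transporters were at similar levels, 32.8 CPM per kilobase of exon for Slc2a1 and 28.0 for Slc2a3 over the 6 libraries.

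Hexokinases trap glucose as glucose 6-phosphate. Hk1, the widely expressed form, led this role per length, at 30.6 CPM per kilobase in CD73 KO and 30.3 in WT. It had 239, 316 and 229 CPM in the CD73 KO libraries, against 246, 238 and 293 CPM in the WT libraries, so the groups overlapped. Hk2, the form that HIF-1 and MYC raise, was at 9.60 CPM per kilobase over the 6 libraries, with 57.0, 53.7 and 44.1 CPM in CD73 KO, against 46.4, 60.5 and 82.1 CPM in WT. Its top library, WT replicate 3, was 1.86 times its lowest, CD73 KO replicate 3.

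The upper steps turn glucose 6-phosphate into triose phosphates. Aldoa, the main aldolase here, was highest per length among them, at 471 CPM per kilobase over the 6 libraries. Its CPM values were 1222, 1469 and 1271 in CD73 KO, against 1161, 1382 and 1727 in WT, with WT replicate 3 above the rest. Aldoc, the aldolase best known from brain (chromosome 11, 78322968 to 78327781), had 42.2, 46.0 and 16.8 CPM in CD73 KO, against 15.9, 16.7 and 32.9 CPM in WT. CD73 KO replicates 1 and 2 and WT replicate 3 formed the high libraries, and the ranges overlapped. Its log2 fold change of 0.71 ± 0.44 was the largest among the members in size (edgeR adjusted p = 0.643), and leaving out 1 library moved it between 0.47 (CD73 KO replicate 2 dropped) and 1.11 (WT replicate 3 dropped). The other 5 upper members had log2 fold changes between -0.23 (Pfkl) and 0.08 (Pfkm). Gpi1, glucose 6-phosphate isomerase, was among the most even members, with its highest library 1.21 times its lowest. Pfkp, a phosphofructokinase, shares 748 exon bases with Pitrm1 on the opposite strand, which had 898 to 1735 counts. The strand setting of the counting is not given in the sources used here, so reads of this stretch cannot be told apart.

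The lower steps harvest ATP and end in pyruvate. All 5 members had log2 fold changes below 0, from -0.26 to -0.04, and all 5 peaked in CD73 KO replicate 2 and WT replicate 3 within their genotype. Without WT replicate 3, Pgk1 (0.11) and Gapdh (0.04) turned above 0, and without CD73 KO replicate 3 Pgk1 did so (0.04). Pgk1, which makes the first ATP of the pathway, was the highest of them per length at 549.6 CPM per kilobase, with 1193, 1409 and 1003 CPM in CD73 KO, against 1071, 1148 and 1576 CPM in WT. Eno1, an enolase (ENSMUSG00000063524, chromosome 4, 150236721 to 150248879), had 1408, 1625 and 1533 CPM in CD73 KO, against 1627, 1710.2 and 2140.4 CPM in WT. Every CD73 KO library lay below every WT library, but CD73 KO replicate 2 and WT replicate 1 were only 2 CPM apart. The log2 fold change was -0.26 ± 0.12 (95% interval -0.53 to 0.00; edgeR adjusted p = 0.520), and -0.13 without WT replicate 3. Reads of Eno1b, a copy 99.48% identical over its transcript, can be exchanged with it, and that copy had 69 to 155 counts. Pkm, pyruvate kinase, had 1939 ± 189 CPM in CD73 KO, against 2110 ± 281 CPM in WT (SD, n = 3 each).

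Gapdh, often used as a reference gene, was the most even member, with its highest library 1.20 times its lowest. It had 305 ± 23.9 CPM in CD73 KO, against 313 ± 29.8 CPM in WT (SD, n = 3 each), and a log2 fold change of -0.04 ± 0.11. Its level is uncertain: 187 processed pseudogenes in the table matched its transcript, 92 of them with counts, and they took 37.8% to 43.2% of the joint counts. With them added, the log2 fold change was -0.03. For the other 13 members with matched retrocopies the share was at most 5.62%.

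Pyruvate is turned to lactate and exported, or kept from the mitochondrion by Pdk1, the kinase that switches off pyruvate dehydrogenase. Ldha, lactate dehydrogenase A (chromosome 7, 46841475 to 46855627), was the highest member per length, at 662 CPM per kilobase. It had 1832, 2201 and 1923 CPM in CD73 KO, against 2112, 2269 and 2815 CPM in WT. CD73 KO replicate 2 overlapped the WT range, and the log2 fold change was -0.27 ± 0.13 (edgeR adjusted p = 0.520), and -0.14 without WT replicate 3. Slc16a1 encodes MCT1, a lactate and pyruvate carrier (ENSMUSG00000032902, chromosome 3, 104638668 to 104658462), and had 127, 123 and 109 CPM in CD73 KO, against 150.5, 170.3 and 151 CPM in WT. All 3 CD73 KO libraries lay below all 3 WT libraries, and within genotypes this was the most even member (standard deviation of log2 CPM 0.11). The log2 fold change was -0.39 ± 0.11 (95% interval -0.63 to -0.15; unadjusted p = 0.00442, edgeR adjusted p = 0.331), and -0.34 ± 0.13 without the library labelled WT replicate 2. Slc16a3 (MCT4), the hypoxia-induced lactate exporter, had 84.0, 178 and 115 CPM in CD73 KO, against 117, 128 and 212 CPM in WT. Here CD73 KO replicate 2 and WT replicate 3 stood apart in both genotypes, and the log2 fold change of -0.28 ± 0.33 turned to 0.03 without WT replicate 3. Pdk1 averaged 143 ± 35.3 CPM in CD73 KO, against 128 ± 31.2 CPM in WT (SD, n = 3 each).

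**Figure D4:**
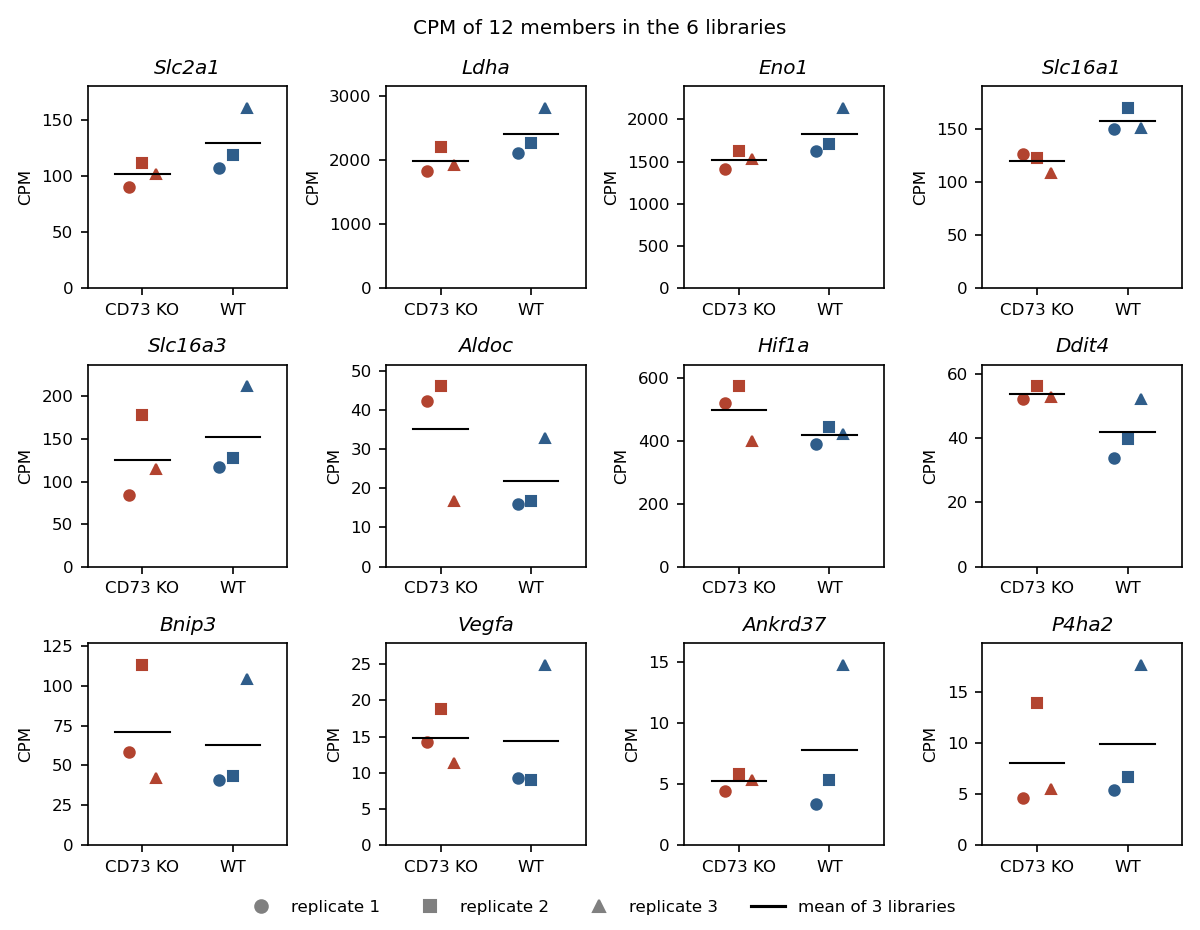
CPM (y axis from 0) of 12 members in each library, CD73 KO left and WT right, with the mean of 3 libraries as a line and the replicate number as the symbol. Slc16a1 and Eno1 do not overlap between genotypes, while in Slc16a3, Bnip3 and P4ha2 CD73 KO replicate 2 (square) and WT replicate 3 (triangle) lie above the other libraries of their genotype.

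Where a step of glycolysis or transport has more than 1 gene among the members, the share of each was compared per length over the 3 libraries of each genotype. Genes outside the members were not counted, such as the enolase Eno3, at 96.7 CPM per kilobase beside 311 for Eno1. Of 7 shares tested with exact two-sided permutation tests, which can reach no p below 0.1 with 3 against 3, p ran from 0.2 to 0.9 and adjusted p from 0.525 to 0.9. Pfkl made up 43.7% ± 0.974 of the phosphofructokinase level in CD73 KO and 46.4% ± 1.52 in WT (SD, n = 3 each; exact permutation p = 0.2). Slc2a1 made up 52.1% ± 8.12 of the glucose transporter level in CD73 KO and 56.2% ± 1.48 in WT. Hk2 made up 22.2% ± 2.99 of the hexokinase level in CD73 KO and 25.5% ± 3.82 in WT. The lactate transporters followed the libraries: Slc16a1 held 64.5%, 45.5% and 53.3% in CD73 KO, against 60.8%, 61.5% and 46.0% in WT. CD73 KO replicate 2 and WT replicate 3, where Slc16a3 was highest, had the lowest share of Slc16a1 in their genotype.

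**Figure D5:**
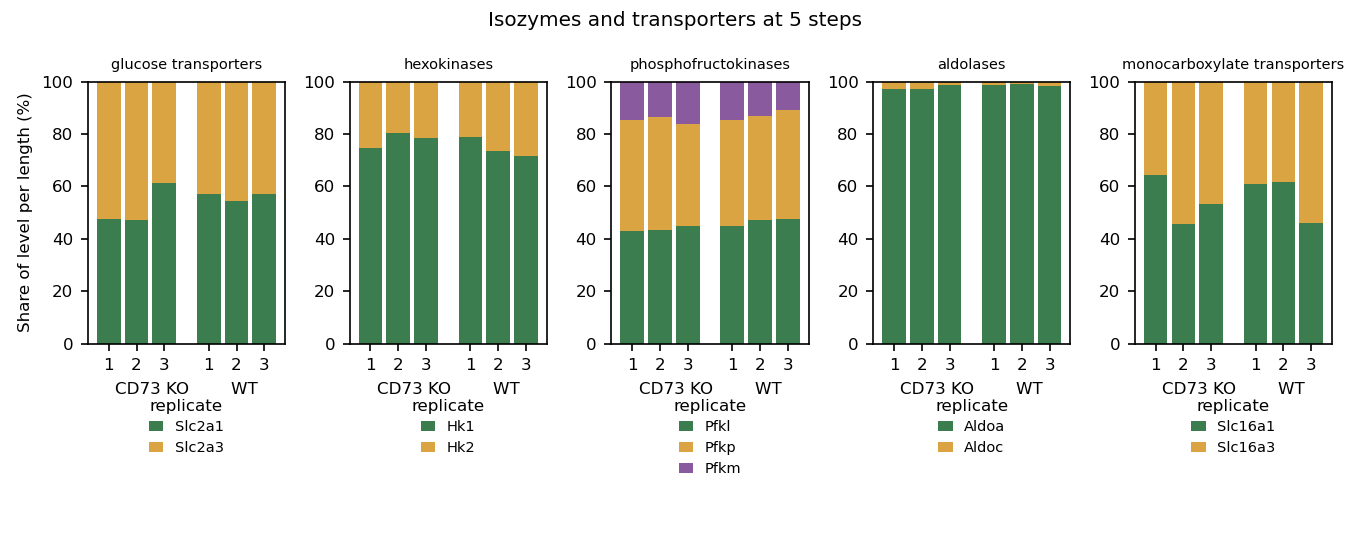
Share (%, y axis) of the summed level per length held by each gene at 5 steps, in CD73 KO replicates 1 to 3 (left bars) and WT replicates 1 to 3 (right bars) of each panel. Aldoa holds nearly all of the aldolase level, and the Slc16a1 share is lowest in CD73 KO replicate 2 and WT replicate 3.

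Among the oxygen sensors, Hif1a, the oxygen-regulated subunit of HIF-1 (chromosome 12, 73901375 to 73947530), was highest per length, at 84.3 CPM per kilobase in CD73 KO and 70.9 in WT. It had 520.3, 573 and 398 CPM in CD73 KO, against 390.5, 442 and 422 CPM in WT. CD73 KO replicates 1 and 2 lay above all WT libraries and replicate 3 inside the WT range. Its fold change on the log2 scale was 0.25 ± 0.13 (edgeR adjusted p = 0.577), and ran from 0.13 (without CD73 KO replicate 2) to 0.38 (without CD73 KO replicate 3) when 1 library was left out. Much of the control of HIF-1 alpha acts on the protein, which was not measured. Egln1 and Egln3, the prolyl hydroxylases that mark it and are themselves HIF targets, had log2 fold changes of -0.06 ± 0.17 and -0.15 ± 0.30.

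Bnip3 and Bnip3l are receptors in the outer mitochondrial membrane that lead mitochondria to autophagy. Bnip3 (chromosome 7, 138890836 to 138909519) had 58.1, 113 and 41.9 CPM in CD73 KO, against 41.1, 43.5 and 104 CPM in WT. Its exact 95% Poisson interval, which covers counting error only, was 107 to 118 CPM in CD73 KO replicate 2 and 96.9 to 112 in WT replicate 3, while the next highest library, CD73 KO replicate 1, had 54.7 to 61.7 CPM. The log2 fold change of 0.19 ± 0.52 turned below 0 when 1 of 3 libraries was left out: -0.31 (CD73 KO replicate 2), -0.06 (WT replicate 1) and -0.03 (the library labelled WT replicate 2). Bnip3l, the higher of the pair per length (39.4 CPM per kilobase), had 159, 194 and 128 CPM in CD73 KO, against 126, 135 and 170 CPM in WT.

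Among the other targets were the 2 members with the highest ratio of highest to lowest library, although the median of this ratio was 1.83 for these 10 genes and 2.14 for the pair of mitophagy receptors. Ankrd37, an ankyrin-repeat gene and a HIF-1 target (chromosome 8, 45996902 to 46005707), had 4.47, 5.88 and 5.39 CPM in CD73 KO, against 3.42, 5.33 and 14.8 CPM in WT. WT replicate 3 alone stood out, with a Poisson interval of 12.1 to 17.9 CPM, and was 4.33 times the lowest library, the largest such ratio among the members. P4ha2, a subunit of the prolyl hydroxylase that modifies collagen (chromosome 11, 54100095 to 54131665), had 4.68, 14.0 and 5.49 CPM in CD73 KO, against 5.44, 6.71 and 17.7 CPM in WT. Both genotypes had 1 high library, and the ratio of highest to lowest was 3.77. Vegfa, the angiogenic factor (chromosome 17, 46016993 to 46032369), had 14.3, 18.8 and 11.4 CPM in CD73 KO, against 9.25, 8.95 and 24.9 CPM in WT, a ratio of 2.78. The log2 fold changes of these 3 were -0.54 ± 0.48, -0.26 ± 0.58 and 0.08 ± 0.41, and each turned sign without a library: Ankrd37 to 0.27 and P4ha2 to 0.41 when WT replicate 3 was dropped, and P4ha2 to 0.03 when CD73 KO replicate 1 was dropped. Vegfa turned to -0.13 (CD73 KO replicate 2 dropped), -0.18 (WT replicate 1 dropped) and -0.18 (the library labelled WT replicate 2 dropped). Ankrd37 shares 57 exon bases with Ufsp2 on the opposite strand, which had 279 to 632 counts.

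Ddit4 (REDD1), an inhibitor of mTORC1 that hypoxia and stress induce, was the highest of the other targets per length, at 27.3 CPM per kilobase (chromosome 10, 59949669 to 59951834). It had 52.2, 56.2 and 52.9 CPM in CD73 KO, against 33.7, 39.9 and 52.3 CPM in WT. WT replicate 3 alone reached the CD73 KO range, at its lower end. In the fit, Ddit4 had a log2 fold change of 0.37 ± 0.16 (95% interval 0.02 to 0.71; unadjusted p = 0.0387, edgeR adjusted p = 0.503), and 0.33 ± 0.19 (unadjusted p = 0.108) without the library labelled WT replicate 2. Leaving out 1 library moved it between 0.22 (without WT replicate 1) and 0.55 (without WT replicate 3). Kdm3a, a histone demethylase and HIF target, had 100.1, 101 and 94.7 CPM in CD73 KO, against 84.4, 77.3 and 101 CPM in WT, the lowest ratio between libraries (1.31) of the hypoxia members. Its log2 fold change was 0.18 ± 0.12 (edgeR adjusted p = 0.657), and ran from 0.09 (without the library labelled WT replicate 2) to 0.29 (without WT replicate 3). The other 5 of these targets had log2 fold changes from -0.23 (Higd1a, a mitochondrial protein) to 0.11 (Ndrg1, a stress-response gene).

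HIF-1 binds a short element whose core is A or G followed by CGTG, so the letters ACGTG and GCGTG were looked for, on either strand, in the 250 bases before a RefSeq transcript start of each member (GRCm38.p6; where a gene has several windows, the one nearest its GENCODE gene start). For 29 members that transcript start lay within 1000 bases of the GENCODE gene start, while for Ldha, Ankrd37 and Hif1a it lay 4329, 5857 and 6492 bases downstream. Their windows fall inside the gene span given above, as do some windows with a smaller shift. Of those printed below, the windows of P4ha2 (829 bases downstream) and Slc16a3 (587 bases downstream) also lie wholly inside the gene. Of 35 members, 32 had a window, and 25 of these (78.1%) held at least 1 match. By the same choice of window the share was 58.4% of tested genes with a window (8897 genes), and 38.6% of all 32851 windows held a match. Over any window, the shares were 93.8% of the 32 members and 62.6% of those tested genes. The list includes known HIF targets, so a higher share among members could follow from the choice of list and is not a test. CACGTG holds 2 overlapping matches, since it reads the same on both strands. The windows below belong to the 6 members with the widest spread between libraries, to Ldha, the highest member per length, and to Slc16a1, the member of lowest p. Capitals mark the matches, and each sequence runs 5′ to 3′ on the strand of the gene.
Ankrd37, chr8:45999851-46000100, minus strand: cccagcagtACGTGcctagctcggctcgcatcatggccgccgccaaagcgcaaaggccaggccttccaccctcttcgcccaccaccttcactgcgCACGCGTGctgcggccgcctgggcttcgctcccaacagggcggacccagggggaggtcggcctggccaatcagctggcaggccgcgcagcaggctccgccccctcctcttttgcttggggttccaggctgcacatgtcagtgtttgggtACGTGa
P4ha2, chr11:54100674-54100923, plus strand: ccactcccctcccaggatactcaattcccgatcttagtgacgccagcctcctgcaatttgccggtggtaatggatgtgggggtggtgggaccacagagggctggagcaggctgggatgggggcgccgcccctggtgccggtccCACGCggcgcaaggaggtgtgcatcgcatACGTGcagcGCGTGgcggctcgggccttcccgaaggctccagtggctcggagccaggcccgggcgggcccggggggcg
Aldoc, chr11:78322823-78323072, plus strand: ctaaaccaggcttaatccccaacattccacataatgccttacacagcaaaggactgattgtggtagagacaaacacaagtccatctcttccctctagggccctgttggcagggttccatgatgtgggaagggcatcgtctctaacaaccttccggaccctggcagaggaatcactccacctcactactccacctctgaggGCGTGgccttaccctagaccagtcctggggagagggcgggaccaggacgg
Vegfa, chr17:46032378-46032627, minus strand: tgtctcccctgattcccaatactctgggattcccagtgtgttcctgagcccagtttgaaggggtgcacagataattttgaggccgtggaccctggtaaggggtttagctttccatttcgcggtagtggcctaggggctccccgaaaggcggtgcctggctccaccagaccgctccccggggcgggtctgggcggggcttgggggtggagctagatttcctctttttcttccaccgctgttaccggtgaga
Bnip3, chr7:138909507-138909756, minus strand: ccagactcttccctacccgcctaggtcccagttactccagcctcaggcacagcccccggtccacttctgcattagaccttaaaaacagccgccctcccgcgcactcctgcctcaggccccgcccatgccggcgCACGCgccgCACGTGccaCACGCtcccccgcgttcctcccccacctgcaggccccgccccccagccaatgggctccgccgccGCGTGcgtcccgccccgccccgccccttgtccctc
Slc16a3, chr11:120948817-120949066, plus strand: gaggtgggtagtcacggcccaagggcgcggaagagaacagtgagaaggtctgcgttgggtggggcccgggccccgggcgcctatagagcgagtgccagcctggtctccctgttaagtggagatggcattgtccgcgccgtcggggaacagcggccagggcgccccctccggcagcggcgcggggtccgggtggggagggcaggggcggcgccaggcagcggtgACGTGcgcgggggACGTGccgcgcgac
Ldha, chr7:46845554-46845803, plus strand: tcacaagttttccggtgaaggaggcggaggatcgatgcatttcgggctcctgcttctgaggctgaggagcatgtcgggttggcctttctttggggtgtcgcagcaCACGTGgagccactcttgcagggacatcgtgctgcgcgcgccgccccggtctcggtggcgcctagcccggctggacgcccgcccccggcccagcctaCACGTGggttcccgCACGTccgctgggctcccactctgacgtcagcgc
Slc16a1, chr3:104638414-104638663, plus strand: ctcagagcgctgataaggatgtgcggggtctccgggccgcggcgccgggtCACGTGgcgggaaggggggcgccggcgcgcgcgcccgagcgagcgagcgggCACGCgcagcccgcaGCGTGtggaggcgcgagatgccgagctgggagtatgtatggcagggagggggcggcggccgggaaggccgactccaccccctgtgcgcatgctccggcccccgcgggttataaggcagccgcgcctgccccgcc
The windows of Bnip3 and Ldha held 5 matches each, those of Ankrd37 and Slc16a1 held 4 each, P4ha2 held 3, Slc16a3 held 2, and Aldoc held 1. Vegfa, with 0 in the window shown, had a match in its other annotated window. A relation between the number of matches and the spread between libraries was not tested. A match is a description of letters. Binding was not measured.

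Of 111 other genes of these pathways in 6 lists, 92 were tested and 0 passed edgeR's test, with 4 higher and 4 lower at an unadjusted p under 0.05 (backgrounds 5.75% and 3.89%). DESeq2 and limma-voom also called 0 of them. Among the glucose sensors and regulators, Mlxip, which encodes the glucose-sensing factor MondoA, had 123, 109.5 and 110.2 CPM in CD73 KO, against 95.3, 81.8 and 92.0 CPM in WT, and a log2 fold change of 0.35 ± 0.11 (edgeR adjusted p = 0.368). Myc, a driver of glycolytic genes in activated T cells, had 202, 196 and 172 CPM in CD73 KO, against 105, 113 and 176 CPM in WT, and 0.54 ± 0.18 (edgeR adjusted p = 0.418). The groups did not overlap for Mlxip, and WT replicate 3 overlapped the CD73 KO range for Myc. Without a filter on low counts, Myc (edgeR adjusted p = 0.00345) and the metallothionein gene Mt2 (log2 fold change -0.54, edgeR adjusted p = 0.0362) were called. They were among 298 genes called of the 21315 in that fit. With the filter, Mt2 had an edgeR adjusted p of 0.524. With the filter but without the library labelled WT replicate 2, Myc had a log2 fold change of 0.44 (edgeR adjusted p = 0.999).

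On the lower side, Dlat, a subunit of pyruvate dehydrogenase, had 42.6, 54.2 and 49.7 CPM in CD73 KO, against 57.9, 64.8 and 63.4 CPM in WT, and Pcx, pyruvate carboxylase, had 12.8, 21.1 and 17.0 CPM in CD73 KO, against 23.3, 24.1 and 24.2 CPM in WT. Neither overlapped, with log2 fold changes of -0.34 ± 0.12 and -0.50 ± 0.19 (edgeR adjusted p = 0.433 and 0.454). The third lower gene by the rule, Akt1, had -0.25 ± 0.10 (edgeR adjusted p = 0.502). The pentose phosphate list had 4 of 14 members lower without overlap (G6pdx, Pgd, Rpia and Tkt), and the pyruvate entry list 3 of 13 (Pdha1, Dlat and Pcx), beside a background of 7.6%. The other 4 lists had 0 of 14 (glycolysis isozymes and regulators), 0 of 9 (oxygen sensing), 1 of 28 (hypoxia targets) and 2 of 14 (glucose sensing), which makes 10 of 92 lower without overlap and 3 of 92 higher (background 7.59%). Hif3a, Epas1 and Vhl had log2 fold changes of 1.22 ± 0.51, -0.57 ± 0.49 and 0.07 ± 0.15, the first 2 at levels under 5 CPM in all libraries. Epas1 turned to 0.19 without the library labelled WT replicate 2, and Vhl to -0.08 without CD73 KO replicate 1.

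Txnip and Arrdc4, arrestins that MondoA induces and that limit glucose uptake, were both highest in CD73 KO replicate 1. Txnip had 519, 246 and 232 CPM in CD73 KO, against 268, 284 and 209 CPM in WT. Its log2 fold change of 0.39 ± 0.32 (edgeR adjusted p = 0.72) turned to -0.09 without CD73 KO replicate 1. Arrdc4, too low to be tested, had 3.35, 0.726 and 1.35 CPM in CD73 KO, against 0.778, 0.746 and 0.712 CPM in WT. The list of other hypoxia targets also leaned to the libraries where the members peaked, with 12 of 28 tested genes highest in both CD73 KO replicate 2 and WT replicate 3 (42.9%, against 17.0% of all tested genes). Of them Ak4, a mitochondrial adenylate kinase named after its values were seen, had 8.72, 22.0 and 6.74 CPM in CD73 KO, against 7.15, 6.92 and 28.9 CPM in WT.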

How the data were processed

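The authors deposited raw counts per gene, with 1 column for each of 6 libraries, all matched to a sample. The submitters' processing notes name fastp, HISAT2, featureCounts and mm10, while versions and the strand setting are not stated; the kit preserved strand, per the labels' protocols. Of 49671 genes, 12242 passed filterByExpr (minimum count 10, minimum total 15). The test was the quasi-likelihood F-test of edgeR 4.0.16 (TMM, robust, legacy fit; R 4.3.3), with Benjamini-Hochberg adjustment. Alternatives were DESeq2 1.42.0, limma 3.58.1 (voom), other normalizations, filters and dispersion settings, the replicate number as a block, each library left out, thinning, and retrocopy counts added. Log CPM used a prior count of 1. Coordinates and exon lengths come from GENCODE M21 (GRCm38). Retrocopies were matched with blastn 2.17.0 (identity at least 80%, cover at least 50%, E-value limit 1e-20). The fit was tested on simulated data. Values per library are given for the 4 members of lowest p in each direction, the 6 with the largest ratio of highest to lowest library and the highest per length in each role. From the other lists, the 3 genes of lowest p in each direction and Txnip, Arrdc4, Vhl and Epas1 are named. The members and lists were chosen with earlier results of these data known.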

Additional observations from a re-analysis of the deposited data

How the results depend on the processing

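The count of 0 members called held in all 18 alternatives. At an unadjusted p under 0.05, the count of members ran from 2 to 8, with the 8 in the fit without a filter. Shares over all genes at that limit are given above for edgeR's main fit, DESeq2 and limma-voom only. The other counts thus have no background here. Over all genes, 7 were called, against 298 of 21315 genes without a filter on low counts and 99 with DESeq2. The count was 3 without both CD73 KO replicate 2 and WT replicate 3, and leaving out 1 library gave 4 to 8. Of the related genes 0 were called, against 2 without a filter. The spread within genotypes was 0.13 (glycolysis) and 0.16 (hypoxia) without both libraries, beside 0.17 for all tested genes. These libraries were chosen after seeing that most members peaked in them, so a lower spread followed from the choice. The cause of the difference between libraries was not tested. Over all tested genes, deviations of same-numbered libraries from their genotype's mean correlated at 0.14, -0.17 and 0.01. Those of CD73 KO replicate 2 and WT replicate 3 correlated at 0.35, the highest of all pairs across genotypes. With 3 libraries per genotype, such correlations cannot tell whether same-numbered libraries share an experiment, and the labels do not say. The fit with the replicate number as a block called 5 genes and 0 members, and gave 0.01 for P4ha1.

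Signs near 0 turned most. The log2 fold change of P4ha1, 0.00, was 0.01 with library size alone, 0.00 with no filter, with 1 CPM in 3 libraries and with the edgeR 4 fit, 0.02 with voom and 0.06 without both libraries. Hk1 was -0.05 without both libraries and -0.01 after thinning, Ankrd37 was 0.18 and Mxi1 -0.02 without both. Leaving out 1 library turned the sign for 22 of 35 members, in 39 of 210 values. Those ranges were Slc2a3 -0.30 to 0.17, Hk1 -0.15 to 0.11, Gpi1 -0.01 to 0.14, Pfkl -0.42 to 0.03, Pfkp -0.35 to 0.16, Pfkm -0.05 to 0.21, Aldoa -0.24 to 0.05, Tpi1 -0.27 to 0.10, Gapdh -0.11 to 0.04, Pgk1 -0.20 to 0.11, Slc16a3 -0.61 to 0.03 and Pdk1 -0.02 to 0.38. Among hypoxia members they were Egln1 -0.21 to 0.14, Egln3 -0.42 to 0.22, Bnip3 -0.31 to 0.75, Vegfa -0.18 to 0.70, Ankrd37 -0.93 to 0.27, Ndrg1 -0.25 to 0.51, P4ha1 -0.12 to 0.17, P4ha2 -0.94 to 0.41, Mxi1 -0.23 to 0.25 and Ero1l -0.44 to 0.02. The other 13 members kept their sign: Slc16a1 (-0.44 to -0.33) moved by less than 1.5 times, and among the rest were Slc2a1 -0.46 to -0.15, Eno1 -0.34 to -0.13, Ldha -0.36 to -0.14, Hk2 -0.46 to -0.05, Pgam1 -0.39 to -0.10, Pkm -0.20 to -0.01, Bnip3l 0.01 to 0.30 and Higd1a -0.37 to -0.04.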

Other observations

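Other genes shared the rise in CD73 KO replicate 2 and WT replicate 3. The 9849 genes with a mean of at least 5 CPM, all 35 members among them, were ranked. The measure was the smaller of the gaps (log2) between that library and the nearest other library of its genotype. The highest 25 held 4 members (P4ha2, Bnip3, Ndrg1 and Slc16a3) and Ak4, which restates the pattern given above. The rest included Gpr171, a receptor, with 22.6, 53.3 and 26.8 CPM in CD73 KO and 14.8, 19.2 and 46.0 CPM in WT, and Dclk1, a kinase, with 4.20, 23.0 and 10.0 CPM in CD73 KO and 7.85, 12.9 and 28.9 CPM in WT. These genes were chosen after their values were seen.

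Of the 25 genes ranked in the same way for being lowest in those libraries, 0 were members or genes of the related lists. This says little, since 32 of 35 members were highest in both libraries. The members and the 92 tested related genes are also few beside the 9849 genes ranked. The 5 named here were also chosen after their values were seen, and the other 20 were not grouped by function. Eomes, a transcription factor of effector and memory CD8 T cells, had 15.1, 1.39 and 6.74 CPM in CD73 KO and 30.1, 34.5 and 2.56 CPM in WT. Gzma, a granule protease, had 3.19, 0.660 and 2.79 CPM in CD73 KO and 7.08, 17.5 and 1.85 CPM in WT. The chemokine receptor Ccr2 had 36.8, 5.08 and 11.3 CPM in CD73 KO and 47.0, 63.3 and 5.13 CPM in WT, and Cxcr3 had 49.0, 27.1 and 44.6 CPM in CD73 KO and 52.6, 42.7 and 25.6 CPM in WT. Cd244a, a receptor of killer cells, had 14.3, 5.02 and 9.92 CPM in CD73 KO and 32.9, 33.0 and 5.13 CPM in WT. A relation between these genes and the hypoxia members was not tested.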
